A study of Mus musculus with 24 samples.

Results

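The 9 genes described here code for components, receptors and regulators of the complement system. They are the C1q chains *C1qa*, *C1qb* and *C1qc*, the central components *C4b* and *C3*, the receptors *C3ar1* and *Itgam*, and the regulators *Serping1* and *Cd59a*. They were picked by name among the 32288 genes of the count tables, and the choice was made on measured values of these same libraries. The values that led to the choice are not recorded, so the genotype differences of the 9 genes in oligodendrocytes, astrocytes, mural cells and microglia are given as a description, without a test. Nuclei of 6 Pdgfb ret/ret and 6 Pdgfb ret/wt mice were profiled by single-nucleus RNA-seq. Each mouse gave a library of the deep brain (pallidum, thalamus and hypothalamus, midbrain and pons), where this model calcifies, and a library of the cortex with the hippocampus, where it does not, which makes 24 libraries. The ret allele codes for PDGF-B without its retention motif, so the Pdgfb transcript cannot serve as a check of the genotype labels. The strain of both groups was B6.Pdgfbtm3Cbet, and the ret/wt controls also carried 1 ret allele. The mice were aged between 4 months 7 days and 5 months 18 days. Ret/wt replicate 6 was male and all others were female.

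Complement is a cascade of plasma and tissue proteins that tags surfaces for removal and can punch pores in membranes. C1q starts the classical pathway, C4 and C3 are cleaved and deposited on the target, C3a and C3b fragments are read by receptors on phagocytes, and inhibitors stop the cascade at several steps. In the brain, C1q is known as a microglial product, complement takes part in the removal of synapses, and *C4b* is a known marker of reactive astrocytes and of oligodendrocytes in diseased white matter.

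Total counts of unique molecular identifiers (UMIs) ran from 64736053 to 96459036 per deep brain library and from 23625232 to 95605387 per cortical library. After filtering, 124958 of 127519 deep brain barcodes and 79967 of 109705 cortical barcodes were kept. Median depth per kept nucleus was 3547 to 7314.5 UMIs in the deep brain and 804 to 8054 UMIs in the cortex. In 7 cortical libraries (ret/ret replicates 1 to 4 and ret/wt replicates 1, 3 and 4) the median lay under 1500 UMIs, so *C4b* in cortical oligodendrocytes is also given for the deeper libraries (ret/ret 5 and 6, ret/wt 2, 5 and 6) and the shallower ones apart, and *C4b* in cortical astrocytes, *Csmd2* in cortical oligodendrocytes and C1q in cortical microglia for the deeper ones. In ret/ret mice this split by depth was also one by age. Ret/ret replicates 5 and 6 were the youngest of their genotype, at 4 months 7 days and 4 months 9 days. The other ret/ret mice were 4 months 24 days to 5 months 18 days old. Clusters that met too few markers of any type, or failed further checks on markers and depth, were left unnamed. They held 9202 deep brain and 42256 cortical nuclei, and their share differed between cortical libraries. Named neurons were 1167 of 9277 kept nuclei in cortical ret/ret replicate 1 and 6788 of 10548 in replicate 5. No pair of libraries shared more than 220 barcodes, 1.99% of the smaller library. Levels below are CPM, counts of the gene scaled to 1000000 UMIs of the nuclei of a class, summed per library, and each library is a different mouse of its genotype and region. Errors are SD over libraries for levels and SE of the fit for log2 fold changes of ret/ret over ret/wt.

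Cell classes were rebuilt here by clustering without the complement genes and named from markers, so that each name stands for nuclei like that type: *Mbp* averaged 5238 CPM in oligodendrocytes of the deep brain and at most 579 CPM in another class, and *P2ry12* 1634 CPM in microglia and at most 165 CPM elsewhere. No cortical cluster met the markers of mural, endothelial or ependymal cells. Averaged over both genotypes, the 9 genes had their highest levels in different classes. The C1q chains, *Itgam* and *C3ar1* had their highest deep brain means in microglia, followed by border macrophages. *Serping1*, the C1 inhibitor, was highest in fibroblasts, with 360 ± 72.5 CPM (SD, n = 12 libraries), followed by mural cells with 110 ± 127 CPM (n = 11), whose spread covered their distance from endothelial cells at 15.1 ± 12.7 CPM (n = 12). *Cd59a*, which blocks the membrane attack complex, was highest in endothelial cells (72.1 ± 27.8 CPM), then in ependymal cells (49.9 ± 20.8 CPM), a step within the spread. The order of classes for *C4b* depended on genotype: in ret/ret it averaged 114.6 CPM in fibroblasts, 76.0 in oligodendrocytes, 66.7 in astrocytes and 42.6 in border macrophages, and in ret/wt 97.4 CPM in fibroblasts, 60.4 in border macrophages, 51.2 in astrocytes and 19.6 in oligodendrocytes. *C3* reached 12.2 ± 10.5 CPM in ependymal cells and 8.93 ± 12.7 CPM in border macrophages. Over all barcodes, *C3* had 434 UMIs, *C3ar1* 3085 and *C1qb* 24541, with *C3* the lowest of the 9 genes.

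**Figure D1:**
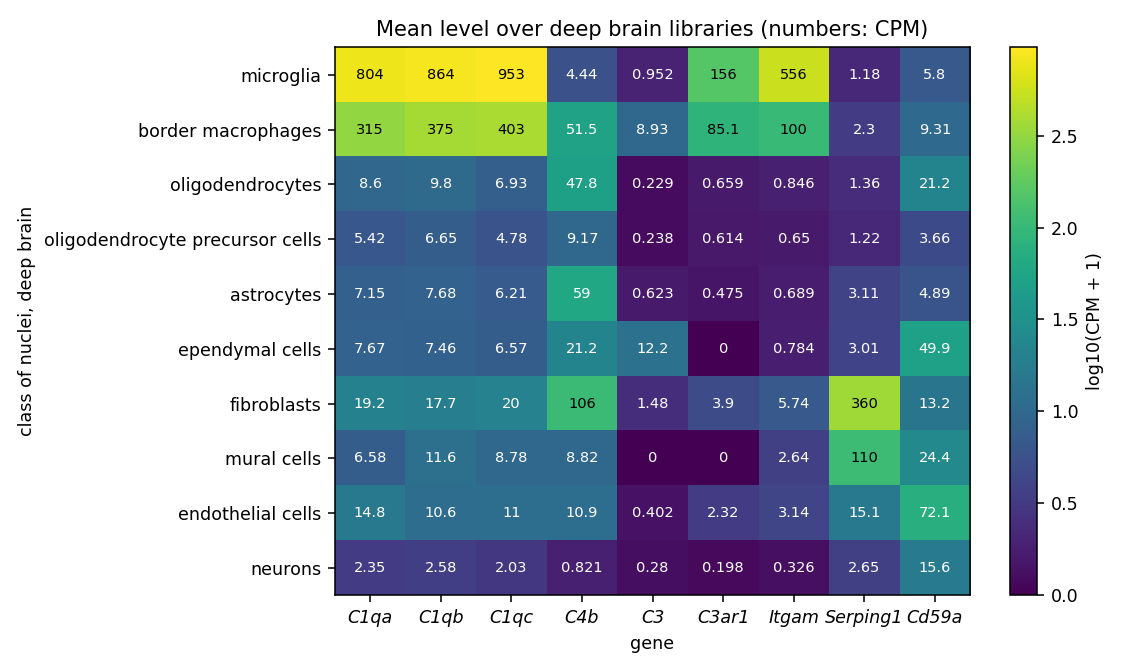
Mean level of the 9 complement genes (columns) in 10 cell classes (rows) over the deep brain libraries. Cells are coloured by log10 of CPM + 1 and the numbers are CPM; compare within a column, since counts depend on gene length. *C1qa* stood at 804 CPM in microglia and 315 CPM in border macrophages, and *Serping1* at 360 CPM in fibroblasts.

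*C4b*, the mouse C4 that is cleaved to C4b on a target and so carries the classical and lectin pathways on to C3, lies on chromosome 17, minus strand (chr17:34728380-34743882, mm10). Its level was higher in ret/ret oligodendrocytes of both regions, with a ratio of means of 3.87 in the deep brain and 14.1 in the cortex. In deep brain oligodendrocytes the 6 ret/ret libraries ranged from 46.9 through a median of 77.6 to 97.9 CPM, and the 6 ret/wt libraries from 15.7 through 18.2 to 24.7 CPM. The lowest ret/ret library was above the highest ret/wt library. The sums rested on 3213 UMIs from 14605 ret/ret nuclei and 853 UMIs from 15642 ret/wt nuclei, with means of 76.0 ± 22.7 and 19.6 ± 3.68 CPM (SD, n = 6 each), and the log2 fold change was 1.98 ± 0.19 (SE).

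In cortical oligodendrocytes, *C4b* ranged from 149 through 199.9 to 422 CPM in ret/ret and from 7.71 through 16.0 to 31.0 CPM in ret/wt libraries, with 2947 and 154 UMIs. The groups did not overlap there either, and every cortical ret/ret library lay above every deep brain ret/ret library. The log2 fold change was 3.78 ± 0.33, with means of 248 ± 112 and 17.6 ± 9.70 CPM (SD, n = 6 each). In the deeper cortical libraries alone it was 3.11 ± 0.25, and in the shallower ones 4.05 ± 0.35. The difference between the regions (deep brain minus cortex) of the log2 fold changes was -1.70 ± 0.25 with mouse as a block, -1.39 ± 0.27 in mice with a deeper cortical library and -2.03 ± 0.33 in the rest. In ret/wt oligodendrocytes the log2 difference between deep brain and cortex was 0.03 ± 0.23. Library depth moved with the size of the cortical difference, but in ret/ret mice it cannot be told apart from age. The part of either was not tested. In deep brain oligodendrocytes, where no library was shallow, ret/ret replicates 1 to 6 held 60.2, 97.9, 95.5, 95.1, 60.2 and 46.9 CPM of *C4b*. Library depth is the median over all kept nuclei and not that of oligodendrocytes. Among cortical ret/ret oligodendrocytes, replicates 5 and 6 held fewer UMIs per nucleus on average than replicates 1 to 4.

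Both the share of oligodendrocytes with *C4b* and the UMIs per such nucleus were higher in ret/ret mice. A *C4b* UMI was present in 14.6% of ret/ret and 4.53% of ret/wt deep brain oligodendrocytes, and in 28.4% and 4.58% of cortical ones. Of the nuclei with a UMI, 30.6% of ret/ret and 15.2% of ret/wt deep brain oligodendrocytes held at least 2, against 51.6% and 16.8% in the cortex. With each nucleus thinned to 1000 UMIs, the share averaged 6.36% ± 1.80 in ret/ret and 2.01% ± 0.44 in ret/wt deep brain libraries and 17.8% ± 5.76 and 1.36% ± 0.85 in cortical ones (SD, n = 6 each). Neurons, deeper at medians of 6474.5 to 22884 UMIs per library against 2017 to 5926 UMIs in oligodendrocytes, are given for comparison. They held a *C4b* UMI in 1.11% of ret/ret and 0.441% of ret/wt deep brain nuclei and in 1.47% and 0.297% of cortical ones. Thinned to the same depth, neurons averaged 0.183% and 0.0354% in the deep brain and 0.249% and 0.0406% in the cortex. Between 28 and 101 oligodendrocytes per genotype and region were too shallow to be thinned. The oligodendrocyte share lay above that of neurons in both genotypes. The neuronal share is no measure of free *C4b* RNA, since neurons were deeper before thinning and *C4b* is also tested in them below. The part of free *C4b* RNA in the oligodendrocyte share was not tested.

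**Figure D2:**
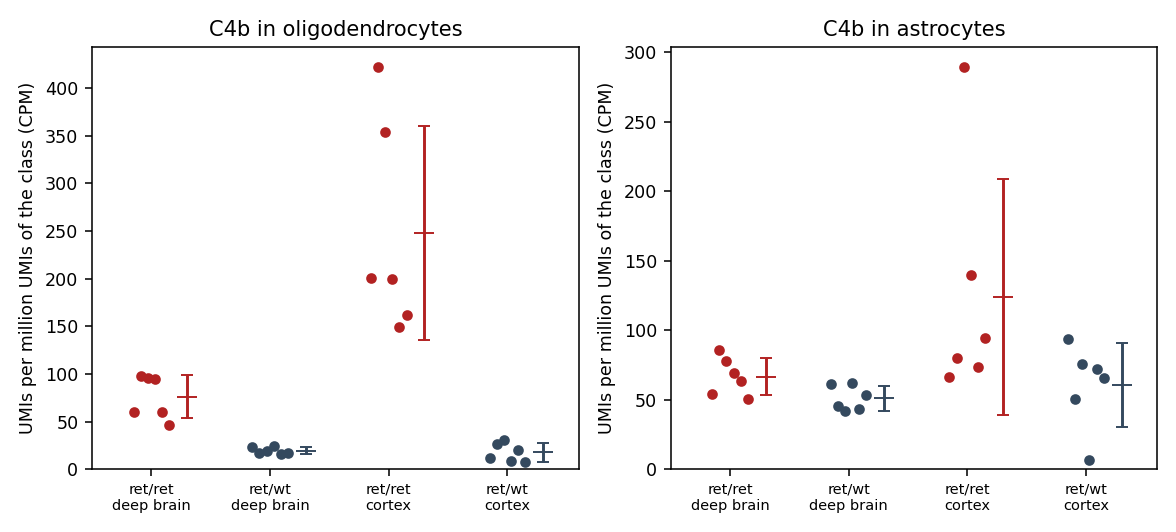
*C4b* level (CPM) in oligodendrocytes and astrocytes by region and genotype. Points are libraries (n = 6 per group) and bars the mean with SD; the ret/ret and ret/wt oligodendrocyte points do not overlap in either region, while the astrocyte points do.

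**Figure D3:**
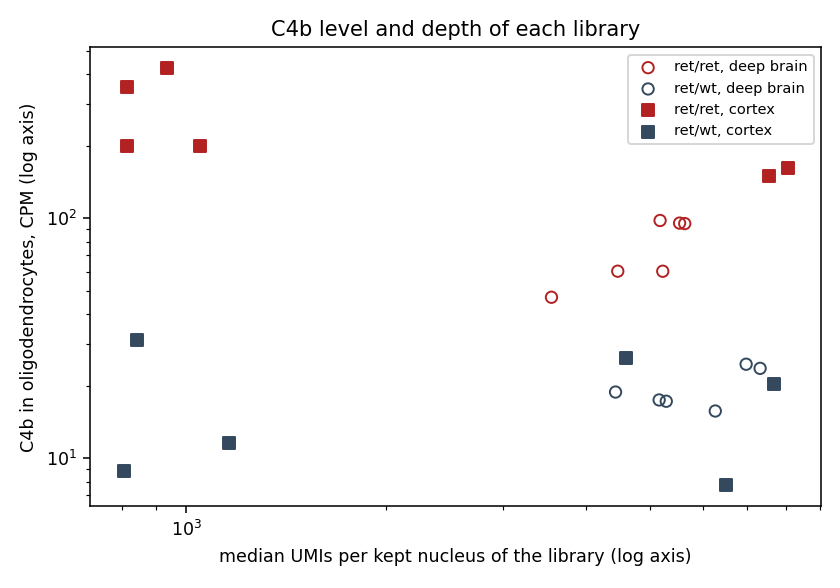
*C4b* level in oligodendrocytes (CPM, log axis) against the library's median UMIs per kept nucleus (log axis). Circles are deep brain and squares cortical libraries, coloured by genotype. The ret/ret points of the 4 shallow cortical libraries lie between 199.6 and 422 CPM, and those of the 2 deeper ones at 149 and 162 CPM. The 2 deeper ones came from the youngest ret/ret mice.

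In oligodendrocytes 6 of the 9 genes passed the filter on low counts in the deep brain and 1, *C4b*, was called at an adjusted p of 0.05, where 1.61% of all 13523 genes tested were called. In the cortex 5 passed and *C4b* was called, with 0.94% of 10105 genes called, and for the difference between regions 6 passed and *C4b* was called, with 0.0366% of 13665 genes called. Since these contrasts may have chosen the genes, nothing is read from these counts. Summed markers of other cell types overlapped between the genotypes in oligodendrocytes. Microglial markers, 6 of 6 detected, summed to 51.9 to 92.0 CPM in ret/ret and 61.7 to 76.0 CPM in ret/wt deep brain oligodendrocytes and to 48.0 to 86.3 and 64.4 to 133 CPM in the cortex. Astrocyte markers summed to 182 to 296 against 200 to 313 CPM in the deep brain and 213 to 407 against 302 to 454 CPM in the cortex. Fibroblast markers, all 5 of 5 detected, summed to 7.30 to 13.0 against 6.65 to 15.4 CPM and 6.09 to 13.1 against 1.94 to 12.6 CPM.

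In astrocytes *C4b* was already present in the controls and the groups overlapped. Deep brain ret/ret libraries ranged from 50.2 through 66.4 to 85.7 CPM and ret/wt libraries from 42.1 through 49.4 to 61.8 CPM, a log2 fold change of 0.38 ± 0.14. Cortical ret/ret libraries ranged from 66.7 through 87.5 to 289 CPM and ret/wt libraries from 6.32 through 68.6 to 93.7 CPM, a log2 fold change of 0.86 ± 0.34 that was 0.40 ± 0.23 in the deeper libraries. The highest cortical ret/ret value, that of replicate 3, and the lowest ret/wt value, that of replicate 4, came from shallow libraries. The regional difference was -0.43 ± 0.31 on the log2 scale. Microglial markers summed to 71.1 to 392 CPM in cortical ret/ret and 60.5 to 142 CPM in cortical ret/wt astrocytes, and their part in the cortical values was not tested.

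Elsewhere in the deep brain *C4b* was tested in classes outside those that the choice of genes named. In fibroblasts, where it was highest, it averaged 114.6 ± 22.9 CPM in ret/ret and 97.4 ± 34.1 CPM in ret/wt libraries (log2 fold change 0.23 ± 0.22, adjusted p = 0.902, edgeR's quasi-likelihood test with Benjamini-Hochberg adjustment over all genes). In oligodendrocyte precursor cells it averaged 10.5 ± 4.05 and 7.81 ± 0.96 CPM (0.48 ± 0.25, adjusted p = 0.896, edgeR). In neurons it was low but higher in all 6 ret/ret libraries, with 0.72 to 2.00 CPM against 0.256 to 0.620 CPM (1.47 ± 0.28, adjusted p = 0.0473, edgeR). That call was lost under 12 of 20 alternatives, among them a block by replicate number and a block by age. It was also lost on leaving out any of ret/ret replicates 1, 2, 3, 5 or 6 or of ret/wt replicates 1, 2, 4 or 5, which gave log2 fold changes of 1.37 to 1.60 and adjusted p of 0.0595 to 0.130 (edgeR). Markers of oligodendrocytes in the neuronal sums ran from 208 to 319 CPM in ret/ret and 241 to 308 CPM in ret/wt libraries. The part of free *C4b* RNA from other nuclei in the neuronal difference was not tested. *C4a* has a nearly identical transcript, and the counting could split its reads with *C4b*. *C4a* was summarised in oligodendrocytes, astrocytes, mural cells, microglia, endothelial cells, fibroblasts and neurons. Its group means there were at most 2.14 CPM, with a highest library of 10.7 CPM, in ret/wt cortical fibroblasts, from 1 UMI. In deep brain neurons *C4a* averaged 1.16 CPM in ret/ret and 1.20 CPM in ret/wt libraries, about as high as *C4b* in ret/ret and above it in ret/wt. How many reads were lost or split between the copies was not tested, so values of both are uncertain.

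*C3*, the component on which all pathways meet (chr17:57203970-57228136, minus strand), was close to absent from the glial classes. Deep brain astrocytes held 0 to 1.93 CPM in ret/ret and 0.269 to 1.07 CPM in ret/wt libraries. Microglia held 0 to 7.35 CPM in ret/ret libraries, from 5 UMIs in all, and no UMI in ret/wt libraries. Ependymal cells, with the highest mean, held 15.3 ± 11.7 and 9.00 ± 9.09 CPM (SD, n = 6 each). Deep brain oligodendrocytes held 0 to 1.06 CPM in ret/ret libraries, from 16 UMIs of which 8 came from replicate 3, and 0 to 0.172 CPM in ret/wt libraries, from 4 UMIs. *C3* did not pass the filter in any glial class, so it was not tested there. In neurons the log2 fold change was -0.09 ± 0.20 (adjusted p = 0.919, edgeR).

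The C1q chains assemble into the recognition molecule that binds immune complexes and tagged synapses. Their genes lie side by side on the minus strand of chromosome 4, *C1qa* at chr4:136895917-136898803, *C1qc* at chr4:136889804-136893065 and *C1qb* at chr4:136880129-136886187 (mm10). The promoters of *C1qb* and *C1qc*, 250 bases before to 50 after the start (RefSeq, GRCm38.p6, minus strand, chr4:136886151-136886450 and chr4:136892865-136893164), are shown because the chains lie side by side and had the same 3 leading classes in the deep brain (microglia, border macrophages and fibroblasts). The capitals in *C1qc* mark the 8 bases that match the reverse complement of the PU.1 motif GAGGAAGT, whose first base lies at -195 from the start. *C1qb* held no match in this window.
C1qb: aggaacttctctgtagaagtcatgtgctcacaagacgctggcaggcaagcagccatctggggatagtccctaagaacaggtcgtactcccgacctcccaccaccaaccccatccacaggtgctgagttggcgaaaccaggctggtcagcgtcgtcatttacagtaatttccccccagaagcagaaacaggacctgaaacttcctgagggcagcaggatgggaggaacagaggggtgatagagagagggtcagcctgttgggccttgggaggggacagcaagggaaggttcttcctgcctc
C1qc: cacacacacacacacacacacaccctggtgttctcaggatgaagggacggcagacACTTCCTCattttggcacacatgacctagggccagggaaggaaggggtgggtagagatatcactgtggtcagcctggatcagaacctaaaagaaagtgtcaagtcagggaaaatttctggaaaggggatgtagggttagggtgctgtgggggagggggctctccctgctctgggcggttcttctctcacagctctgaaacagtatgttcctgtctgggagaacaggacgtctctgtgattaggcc
Read on both strands, GAGGAAGT was present in 3.20% of the 32851 promoters of the table. TTCNNNGAA, the STAT site GAS, was present in 8.30% of them and in none of the promoters found for the 9 genes. The interferon-stimulated response element, read as GAAA, any 2 bases and GAAA, was present in 3.44% and in that of *Cd59a*, as GAAAGGGAAA with its first base at -187. Promoters of 6 of the 9 genes were in the table, and not those of *C4b*, *C1qa* and *Serping1*. A match in letters is a description and not a binding site.

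In deep brain microglia the 3 chains averaged higher in ret/ret mice by small amounts, and the groups overlapped for each. *C1qa* ranged from 703 through 895 to 1015 CPM in ret/ret and from 588 through 691 to 941 CPM in ret/wt libraries, a log2 fold change of 0.30 ± 0.11. *C1qb* ranged from 770 through 997 to 1136 CPM and from 608 through 765 to 909 CPM (0.39 ± 0.10). *C1qc* ranged from 849.6 through 1010 to 1149 CPM and from 738 through 891 to 1059 CPM (0.20 ± 0.10). The summed chains averaged 2871 ± 378 CPM in ret/ret and 2371 ± 325 CPM in ret/wt microglia (SD, n = 6 each). Deep brain *C1qa* rested on 2448 UMIs from 1281 ret/ret and 1646 UMIs from 986 ret/wt nuclei.

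In cortical microglia the differences of the chains were about as large as their SE or smaller. The log2 fold changes were 0.06 ± 0.17 for *C1qa*, 0.19 ± 0.17 for *C1qb* and -0.08 ± 0.15 for *C1qc*. The deeper cortical libraries gave -0.26, -0.17 and -0.25, so the sign of *C1qa* and *C1qb* turned with the libraries used. The 3 regional differences were 0.24 ± 0.15, 0.19 ± 0.15 and 0.28 ± 0.14, deep brain minus cortex. In ret/wt microglia all chains were lower per UMI in the deep brain than in the cortex, by log2 differences of -0.73 ± 0.11, -0.63 ± 0.11 and -0.65 ± 0.10. In cortical ret/wt microglia *C1qa* averaged 1279 ± 70.4 CPM in the 3 shallower and 1130 ± 351 CPM in the 3 deeper libraries, and *C1qb* 1125 ± 246 and 1211 ± 398 CPM, both within the spread. In cortical ret/ret microglia *C1qa* averaged 1447 ± 224 CPM in the 4 shallower and 917 ± 170 CPM in the 2 deeper libraries. Library depth is not that of the microglia: ret/ret replicates 5 and 6 held fewer UMIs per cortical microglial nucleus on average than replicates 1 to 4. Depth and age cannot be told apart in the ret/ret libraries, and the part of either in the cortical values was not tested.

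**Figure D4:**
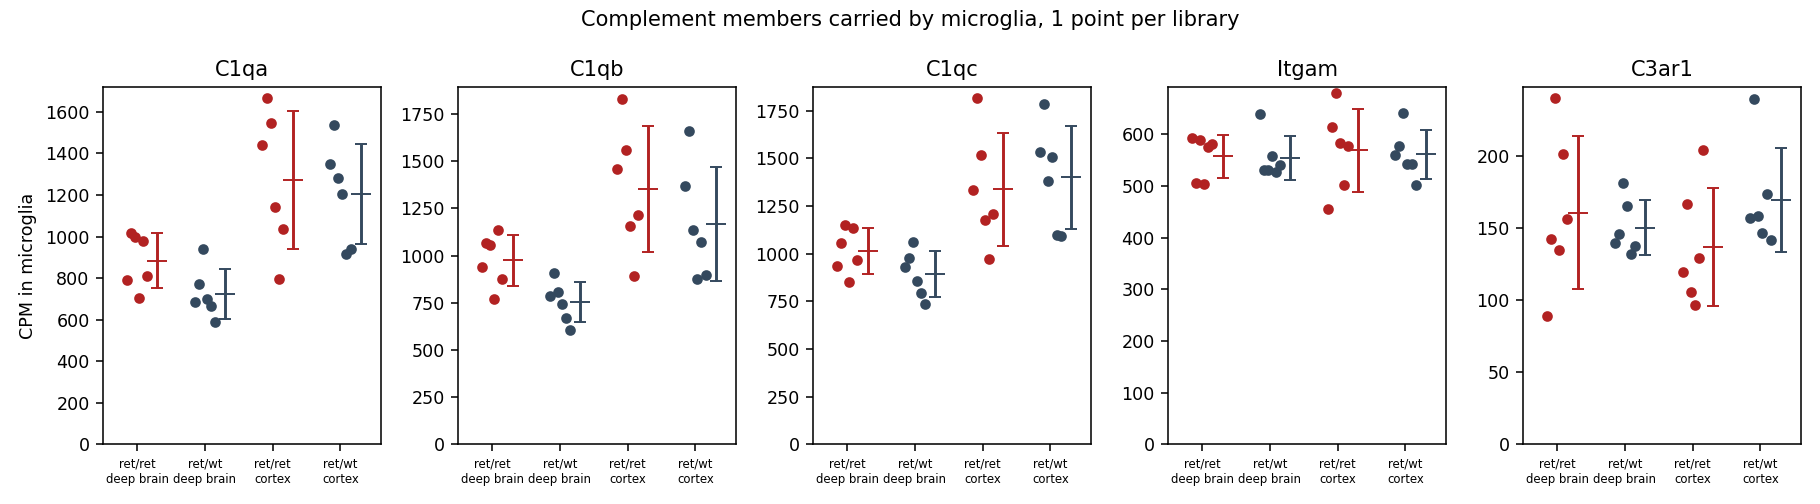
Levels (CPM) of *C1qa*, *C1qb*, *C1qc*, *Itgam* and *C3ar1* in microglia by region and genotype. Points are libraries (n = 6 per group) and bars the mean with SD; ret/ret and ret/wt points overlap in every panel and region.

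Among microglia 5 of the 9 genes passed the filter in either region and for the regional difference, and none was called. By comparison 0.123% of 7292 genes were called in the deep brain, 0.144% of 2769 genes in the cortex and 0.0238% of 8386 genes for the difference. Nothing is read from these counts either, since these contrasts may have chosen the genes. Nuclei with a UMI of *Mrc1*, a border macrophage gene, were left out of microglia, as were nuclei with a UMI of the neuronal, astrocytic or oligodendrocytic genes *Rbfox3*, *Aqp4* or *Mbp*. In border macrophages of the deep brain *C1qa* averaged 241 ± 116 CPM in ret/ret and 390 ± 184 CPM in ret/wt libraries (SD, n = 6 each).

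C1q levels in the other classes were low. In deep brain oligodendrocytes *C1qa* averaged 10.2 and 6.98 CPM (0.56 ± 0.19), *C1qb* 11.8 and 7.79 CPM (0.62 ± 0.17) and *C1qc* 8.37 and 5.50 CPM (0.63 ± 0.16) in ret/ret and ret/wt libraries. In the cortex the 3 log2 fold changes were 0.16 ± 0.33, -0.14 ± 0.29 and 0.39 ± 0.39. In deep brain astrocytes *C1qa* ranged from 6.43 through 9.33 to 17.8 CPM in ret/ret and from 2.18 through 3.67 to 6.10 CPM in ret/wt libraries. These groups did not overlap, and the log2 fold change was 1.41 ± 0.29, beside 0.34 ± 0.25 for *C1qb* and 0.49 ± 0.21 for *C1qc* in the same nuclei. Of the 5 genes that passed the filter there *C1qa* was the 1 called, where 4.82% of 12838 genes were called, a count from which nothing is read, and in cortical astrocytes 1 gene passed and none was called, where 2.33% of 6825 genes were called. For the regional difference in astrocytes 4 passed and none was called, with 0.00811% of 12338 genes called, and nothing is read from that count. In neurons the 3 chains stood at 2.87 against 1.82, 3.38 against 1.77 and 2.58 against 1.48 CPM, with log2 fold changes of 0.64 ± 0.18, 0.92 ± 0.19 and 0.79 ± 0.19 (adjusted p = 0.144, 0.0581 and 0.0849, edgeR), while DESeq2 called all 3 (adjusted p = 0.0331, 0.000622 and 0.00512). The ratios between the chains in these classes were set by few UMIs.

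Microglial marker genes stood beside the C1q counts of the other classes in both genotypes. All 6 markers had UMIs, and their sum was 66.3 to 93.8 CPM in ret/ret and 62.1 to 90.9 CPM in ret/wt deep brain astrocytes, and 41.2 to 55.3 and 39.0 to 52.8 CPM in neurons. These sums overlapped between genotypes while the C1q counts averaged higher in ret/ret, and the part of free microglial RNA in them was not tested.

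The receptors *C3ar1*, which binds C3a, and *Itgam*, the alpha chain of complement receptor 3, were found in microglia and border macrophages. In border macrophages *C3ar1* averaged 85.2 ± 58.4 CPM in ret/ret and 85.1 ± 50.1 CPM in ret/wt deep brain libraries (SD, n = 6 each) and 147 ± 68.6 CPM in cortical ret/ret libraries (n = 6), a level within the spread of cortical ret/ret microglia. *Itgam* averaged 111 ± 42.3 and 89.5 ± 48.7 CPM in deep brain border macrophages. *C3ar1* (chr6:122847138-122856161, minus strand) ranged from 89.3 through 149.6 to 240 CPM in ret/ret and from 132 through 143 to 181 CPM in ret/wt deep brain microglia, a log2 fold change of 0.12 ± 0.17. In the cortex it averaged 137 ± 41.0 and 170 ± 36.1 CPM (-0.29 ± 0.20), and without ret/ret replicate 6 the log2 fold change was -0.49. The regional difference was 0.42 ± 0.24. *Itgam* (chr7:128062640-128118491, plus strand) ranged from 503 through 578 to 592 CPM in ret/ret and from 526 through 536 to 639 CPM in ret/wt deep brain microglia (0.02 ± 0.09). Cortical means were 568 ± 80.2 and 561 ± 47.0 CPM (0.01 ± 0.13), and the regional difference was 0.02 ± 0.15. Of the 5 genes fitted in microglia, *Itgam* had the smallest SE in both regions. In neurons *Itgam* had a log2 fold change of 1.34 ± 0.36 at 0.470 against 0.182 CPM (adjusted p = 0.122, edgeR, and 0.0313 by DESeq2) and *C3ar1* one of 0.56 ± 0.35 (adjusted p = 0.556, edgeR).

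*Serping1*, which codes for the C1 inhibitor that blocks the C1 proteases (chr2:84765387-84775444, minus strand), had its highest deep brain mean in fibroblasts. The mean of mural cells came next but rested on few UMIs. In deep brain fibroblasts it averaged 367 ± 95.2 CPM in ret/ret and 353 ± 48.7 CPM in ret/wt libraries (0.04 ± 0.16, adjusted p = 0.988, edgeR). Mural cells, the pericytes and smooth muscle cells whose recruitment PDGF-B drives, were few, with 49 ret/ret nuclei in 5 libraries and 167 ret/wt nuclei in 6. Their own markers summed to 6375 to 11112 CPM in ret/ret and 4551 to 11854 CPM in ret/wt libraries. There ret/ret replicates 1 to 5 held 424, 0, 180, 204 and 160 CPM of *Serping1*, from 10, 0, 2, 7 and 5 UMIs, and ret/wt replicates 1 to 6 held 0, 23.8, 17.6, 46.1, 71.4 and 81.9 CPM, from 0, 1, 2, 2, 10 and 4 UMIs. All but 1 ret/ret library lay above the highest ret/wt library, and the ranges overlapped through the ret/ret library without a UMI. Neither *Serping1* nor another of the 9 genes passed the filter in mural cells, where edgeR called 0% of 721 genes, with 52 at an unadjusted p under 0.05, and DESeq2 called 14. Fibroblast markers, 5 of 5 detected in ret/ret and all but *Lum* in ret/wt, summed to 58.2 to 270 CPM in ret/ret and 64.3 to 190 CPM in ret/wt mural cells, and their part in the *Serping1* values was not tested. In deep brain astrocytes *Serping1* averaged 4.21 ± 1.19 and 2.02 ± 0.94 CPM but did not pass the filter, and in oligodendrocytes it averaged 1.66 and 1.06 CPM (0.63 ± 0.31).

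*Cd59a*, the membrane inhibitor of pore formation (chr2:104095801-104115354, plus strand), had its highest CPM in endothelial and ependymal cells. Most of its deep brain UMIs lay in neurons, with 733 of 1022 in ret/ret replicate 1 and 1214 of 1751 in ret/wt replicate 3. In endothelial cells it ranged from 25.1 to 87.7 CPM in ret/ret and from 41.9 to 133 CPM in ret/wt libraries (-0.18 ± 0.28, adjusted p = 0.944, edgeR). In oligodendrocytes it averaged 19.3 ± 3.24 and 23.0 ± 7.49 CPM in the deep brain (-0.23 ± 0.18) and 13.4 ± 4.93 and 20.7 ± 9.87 CPM in the cortex (-0.63 ± 0.27), and the groups overlapped in both. In deep brain astrocytes the log2 fold change was 0.10 ± 0.20. In neurons it averaged 15.4 and 15.8 CPM (-0.02 ± 0.19, adjusted p = 0.978, edgeR). The neighbouring gene *Cd59b* (chr2:104069849-104091187) is a paralog of *Cd59a*, and how far reads were split between them was not tested. Over the classes given for *C4a*, group means of *Cd59b* ran from 0 in ret/ret mural cells to 9.90 CPM in ret/wt mural cells of the deep brain.

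**Figure D5:**
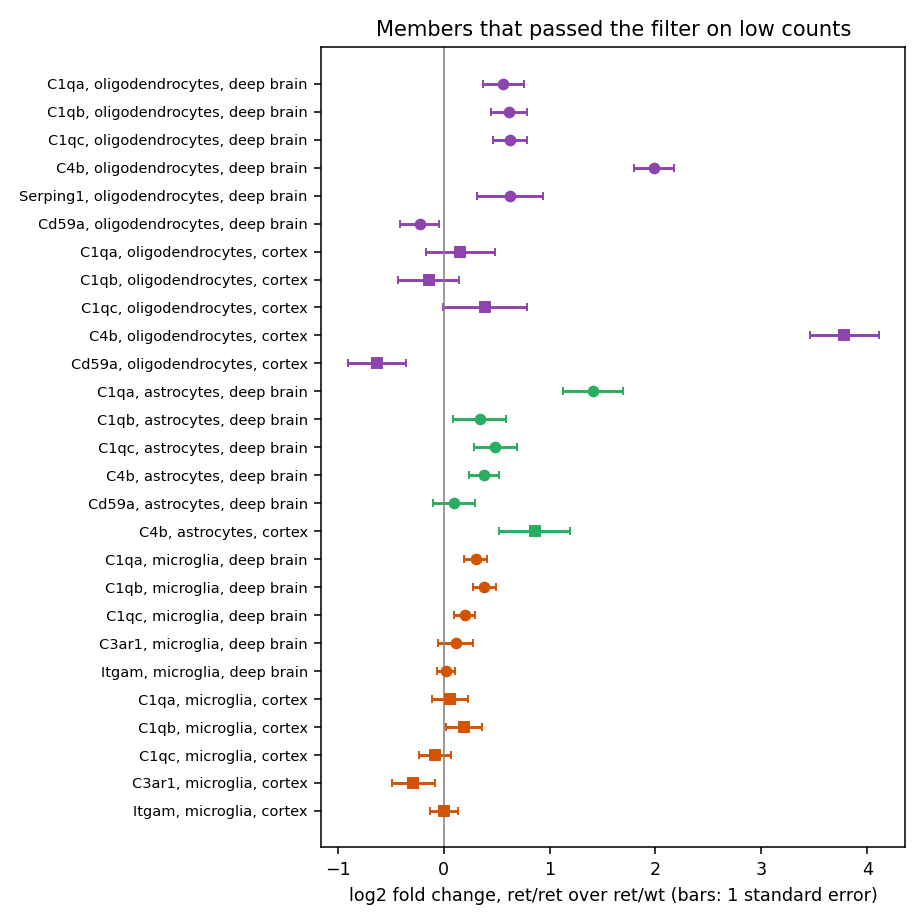
Log2 fold change of ret/ret over ret/wt with 1 SE for each complement gene that passed the filter in oligodendrocytes, astrocytes and microglia of each region. The *C4b* points of oligodendrocytes stand apart at 1.98 (deep brain) and 3.78 (cortex), while the microglial points lie between -0.29 and 0.39.

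In the classes outside the choice of genes, *C4b* in neurons was the 1 member that edgeR called, a call lost under 12 of 20 alternatives. Neuronal sums held oligodendrocyte markers in both genotypes, so this call may not be independent of the oligodendrocyte values, and that part was not tested. In the same neurons DESeq2 also called *C1qa*, *C1qb*, *C1qc* and *Itgam*, and edgeR without deep nuclei also called *C1qb* (adjusted p = 0.0357) and *C1qc* (adjusted p = 0.0479), and edgeR without ret/ret replicate 5 called *C1qb* (log2 fold change 1.03, adjusted p = 0.0472). In precursor cells 1 of the 9 genes was tested, where 0.0559% of 10728 genes were called, in endothelial cells 1, where 0.454% of 4842 were called, in fibroblasts 2, where 0.0339% of 5895 were called, and in neurons all 9, where 0.352% of 19880 were called.

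The rest of the complement system, 44 genes on a list by role that was drawn up with earlier results known, was tested with the same fits, in which the median log2 fold change of all genes tested lay between -0.0146 and 0.00831. In deep brain oligodendrocytes 14 of these 44 genes were tested and 1 was called, higher, with a median log2 fold change of 0.03, where 1.61% of all genes were called. That gene was *Csmd2*, a membrane protein with complement control domains. It ranged from 123 through 180 to 224 CPM in ret/ret and from 83.0 through 103 to 129 CPM in ret/wt libraries (0.76 ± 0.14, adjusted p = 0.0092, edgeR), with an overlap of the highest ret/wt library and the lowest ret/ret library. In cortical oligodendrocytes 7 were tested and *Csmd2* was again the 1 called, where 0.94% of all genes were called (0.71 ± 0.16, adjusted p = 0.032, edgeR). In the cortex the call was lost without any of ret/ret replicates 1 to 3 or ret/wt replicates 1 to 4 (adjusted p = 0.0574 to 0.0902, edgeR), and the deeper libraries gave 0.21 ± 0.16 (adjusted p = 0.804, edgeR). The deeper ret/ret libraries came from the youngest ret/ret mice, and the parts of depth and age were not tested. In microglia 8 were tested in the deep brain and 4 in the cortex, in precursor cells 8, in endothelial cells 7, in fibroblasts 8 and in mural cells 3, and edgeR called none. At an unadjusted p under 0.05 these classes had 0, 2, 0, 3, 1 and 1 of them in that order.

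In deep brain astrocytes 12 of the 44 were tested, 1 was higher and 2 were lower in ret/ret mice, with a median log2 fold change of -0.03, where 4.82% of all genes were called in that fit, 3.05% higher and 1.78% lower. *C2*, the protease that joins C4b in the classical C3 convertase, ranged from 1.5 through 4.86 to 8.12 CPM in ret/ret and from 7.17 through 9.52 to 12.8 CPM in ret/wt libraries (-1.06 ± 0.28, adjusted p = 0.039, edgeR). *Masp1*, a protease of the lectin pathway, ranged from 10.5 through 15.2 to 33.0 CPM and from 25.3 through 26.9 to 32.1 CPM (-0.75 ± 0.20, adjusted p = 0.039, edgeR). Ret/ret replicate 6 held the highest value of both genes in its group. *Cr2*, a receptor for C3 fragments, ranged from 5.52 through 9.99 to 12.7 CPM and from 2.54 through 4.38 to 7.17 CPM (1.07 ± 0.25, adjusted p = 0.021, edgeR). The *C2* call was lost without any of ret/ret replicates 1, 2, 3 or 5 or ret/wt replicates 1 to 4 (log2 fold change -1.14 to -0.96, adjusted p = 0.0531 to 0.095, edgeR). The *Masp1* call was lost without any of replicates 1 to 5 of either genotype (-0.78 to -0.64, adjusted p = 0.0529 to 0.0984, edgeR), and the *Cr2* call without ret/ret replicates 2, 3 or 5 or ret/wt replicate 5 (0.95 to 1.04, adjusted p = 0.0503 to 0.0606, edgeR). In cortical astrocytes 6 were tested and edgeR called none, with 0 at an unadjusted p under 0.05.

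In neurons 28 of the 44 were tested, with a median log2 fold change of -0.01. Of the 7 genes of the terminal pathway none was tested in the glial classes and 5 were tested in neurons, and edgeR called none, with *C7* at an unadjusted p of 0.015 (-0.69, adjusted p = 0.248, edgeR). For the regional differences 14, 11 and 9 genes of the list were tested in oligodendrocytes, astrocytes and microglia, and edgeR called none, with 0, 0 and 1 at an unadjusted p under 0.05.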

How the data were processed

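The authors deposited raw UMI counts per gene and barcode for each of the 24 libraries, made with 10x 5′ gene expression chemistry. Per the labels and the study's methods, reads were demultiplexed with bcl2fastq 2.20.0.422, aligned to mm10 and counted with Cell Ranger 5.0.1, introns included. Counts were used as deposited. Nuclei with over 500 and under 7000 genes and under 20% mitochondrial UMIs were kept. Counts were scaled to 1000 per nucleus and put on a natural log scale, and each region was clustered separately on 2000 variable genes, complement genes left out, and 20 components with Seurat 5.3.0 (20 neighbours, resolution 0.01, then 0.1 within clusters). A cluster was named where it reached 20% of the highest cluster's CPM for at least 3 markers of a list, a rule set after the clusters were seen. It was still left unnamed where markers of another class or mitochondrial genes led or another broad class's list was met. The same held for low depth without own markers among its leading genes. No doublet caller was run. Microglia were stripped of nuclei that held a UMI of *Rbfox3*, *Aqp4*, *Mbp* or *Mrc1* (3401 to 2267 nuclei in the deep brain, 1542 to 1068 in the cortex), and mural cells of nuclei without a mural marker or with *Pcp2* or *Car8* (253 to 217). Ret/ret replicate 6 then held 1 deep brain mural nucleus and was left out of that fit. *Vtn* is both a mural marker and on the complement list, so it had a part in naming and keeping mural nuclei.

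UMIs were summed per library and class (at least 5 nuclei). The genotypes were compared with edgeR 4.0.16 (filterByExpr, TMM, quasi-likelihood test, limma 3.58.1, R 4.3.3), with Benjamini-Hochberg adjustment over all genes tested and an adjusted p of 0.05 as the threshold. SE is the log2 fold change over the root of F. The regional difference was fitted with the mouse as a block. Each library is a separate mouse per genotype and region, so p-values measure the spread between mice. Intervals over UMIs would cover counting error only. Alternatives were DESeq2 1.42.0, other size factors, no filter, blocks, leaving out deep nuclei and leaving out each replicate, and, added after seeing the data, cortical libraries by depth. The fits were tested on simulated data first.

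The members and lists were chosen with earlier results of these data known. All 9 members are named in each class, and other complement genes where they pass the threshold, except for a result that is not reported here. The genes most like *C4b* are the 5 with the highest Spearman correlation. Gene positions were taken from the GENCODE annotation of mm10, and motifs were searched as letters in the RefSeq promoter table (GRCm38.p6). Python 3.11.15, scanpy 1.11.5 and scipy 1.17.1 were used for the rest.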

Additional observations from a re-analysis of the deposited data

Results flagged for a closer look

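In 5 of 80 groups of 5 or 6 libraries, 1 library lay far from the others by Dixon's gap, and chance gives about 1 in 20 such groups. Each value below is the highest within its own genotype, class and region. *C4b* in cortical astrocytes was highest in ret/ret replicate 3, at 289 CPM. *C3ar1* in cortical microglia was highest in ret/wt replicate 2, at 239.7 CPM. *Itgam* in deep brain microglia was highest in ret/wt replicate 1, at 639 CPM. Within ret/ret, *Cd59a* was highest in replicate 3 both in deep brain neurons, at 21.5 CPM, and in cortical oligodendrocytes, at 22.8 CPM. The genotype difference of *C4b* in oligodendrocytes differed between the regions by -1.70 on the log2 scale, deep brain minus cortex, which is given as a description since the gene was chosen on these values.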

How the results depend on the processing

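*C4b* in oligodendrocytes kept its direction under every alternative run, with log2 fold changes of 1.88 to 2.09 in the deep brain and 3.11 to 4.05 in the cortex, and a regional difference of -2.03 to -1.39. The log2 fold changes of *C1qa*, *C1qb*, *C1qc* and *Itgam* in cortical microglia changed sign under 5, 1, 1 and 7 of 23 alternatives. The mural comparison in the cortex was not run because no cortical cluster met the mural markers, and endothelial cells gave no value with the complement genes in the clustering. Few named nuclei limit the values of most cortical libraries and of mural cells, and few UMIs limit those of *C3*. The cause of the moves below was not tested. Counts of all genes called moved by over 1.5 times under the alternatives below.

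DESeq2 called 487 genes in deep brain and 215 in cortical oligodendrocytes, 14 in mural cells, 7 in cortical microglia, 12 in precursor cells, 47 in endothelial cells, 7 in fibroblasts and 561 in neurons, and 10, 13 and 0 for the regional difference in oligodendrocytes, astrocytes and microglia. Without the filter on low counts 232 were called in cortical oligodendrocytes, 370 in cortical astrocytes, 14 in mural cells, 65 in deep brain and 58 in cortical microglia, 74 in precursor cells, 127 in endothelial cells, 77 in fibroblasts, and 57, 46 and 8 for the regional differences. Without deep nuclei 13 were called in mural cells, 7 in fibroblasts and 166 in neurons, and 4 and 0 for the regional difference in astrocytes and microglia. With contaminated nuclei kept in microglia 15, 14 and 0 were called in the deep brain, in the cortex and for the regional difference, and RLE size factors gave 1 for the last. With only cortical libraries over 1500 UMIs per nucleus 33 were called in oligodendrocytes and 50 in astrocytes, and 2 and 0 for the regional difference in oligodendrocytes and microglia. With only those under 1500 UMIs 265 were called in oligodendrocytes, 93 in astrocytes and 17 in microglia, and 27 and 1 for those regional differences.

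The replicate numbers were not taken to pair the samples. Deviations of same-numbered samples correlated between -0.137 and 0.493, over 0.1 in 18 of 36 pairs. With 6 ret/wt libraries to match, 20 of 36 correlated best with their own number, more often than random matching gives. Cortical library depth, over or under 1500 UMIs, also followed the number except in replicate 2. The main fits leave this shared structure out, so their p-values do not account for it. Replicates 1 to 4 had the same ages to the day in both genotypes. The ages of replicates 5 and 6 were swapped between the genotypes. No label ties a number to a litter, batch or day, so whether the mice were paired by design is not known. The replicate block called 512 genes in cortical oligodendrocytes, 295 in cortical astrocytes, 30 in cortical microglia, 28 in precursor cells, 7 in endothelial cells, 5 in fibroblasts and 187 in neurons. A block by age called 382, 29, 23, 13 and 5 in cortical oligodendrocytes, cortical microglia, precursor cells, endothelial cells and fibroblasts. In neurons *C4b* was not called with the replicate block (adjusted p = 0.105, edgeR) or the age block (adjusted p = 0.119, edgeR). Without the mouse as replicate block the regional differences gave 0, 0 and 0 calls by edgeR, with 416, 594 and 291 genes at an unadjusted p under 0.05, and *C4b* was then not called, nor was it with only cortical libraries over 1500 UMIs. Nothing is read from these calls of *C4b*, since the contrast may have chosen the gene.

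Leaving out 1 replicate gave 99 (without ret/ret replicate 3) to 498 calls (without ret/ret replicate 6) in deep brain oligodendrocytes and 59 (ret/wt 2) to 195 (ret/ret 6) in cortical ones. It gave 369 (ret/ret 3) to 1028 (ret/ret 6) in deep brain astrocytes and 111 to 231 in cortical ones, 0 to 2 (ret/wt 2) in mural cells, 8 to 14 (ret/ret 5) in deep brain and 3 to 20 (ret/ret 6) in cortical microglia, and 4 to 12 (ret/ret 6) in precursor cells. Endothelial cells gave 10 (ret/ret 4) to 58 (ret/wt 3), fibroblasts 0 to 7 (ret/ret 6) and neurons 4 to 194 (ret/wt 3). The regional differences gave 3 to 7, 0 to 17 (ret/ret 4) and 0 to 3.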

Other observations

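The 5 genes whose level followed that of *C4b* most closely over the 24 oligodendrocyte sums, among 13665 genes, were *Cadps2* (Spearman's rho 0.925), *Metap1d* (0.858), *4930420G21Rik* (0.857), *Pcdhb22* (0.856) and *Nlrc5* (0.84). *Nlrc5*, a known activator of MHC class I genes, averaged 5.43 CPM in ret/ret and 1.55 CPM in ret/wt deep brain oligodendrocytes and 17.3 and 2.98 CPM in cortical ones. *Cadps2*, which codes for a protein of dense-core vesicle release, averaged 71.6 and 57.6 CPM in the deep brain and 101 and 50.2 CPM in the cortex. Over the 24 astrocyte sums, among 12338 genes, the 5 were *Cpe* (0.825), *9630013D21Rik* (0.803), *Diaph2* (0.783), *mt-Nd1* (0.783) and *1110051M20Rik* (0.777), and no gene stood on both lists. The points share libraries, mice and depth, so these correlations are a description without a test.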
